A study of Mus musculus with 25 samples.

Results

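Mouse liver progenitor cells driven by oncogenic Ras were sequenced both in culture and after growth as tumours in the liver, and the comparison described here sets 4 libraries of sorted liver tumour cells, each from a different mouse, against 3 libraries of cultured RasHIGH cells. These 7 libraries were chosen by their sample labels alone, out of 25 in the series. BMEL cells are a bipotential line from the embryonic liver of a C57B/6 by C3H mouse (spelled as in the labels, C57BL/6xC3H in the paper). RasHIGH cells carry a vector with H-Ras G12V and a fluorescent reporter, and had been sorted for strong reporter signal, so that they are a population and not 1 clone. The cultures were growing exponentially on collagen-coated plates in medium with serum, insulin, IGFII and EGF. The tumours arose after injection into the liver of athymic nude mice, which lack mature T cells but keep NK cells and myeloid cells, and were dissociated with a tumour dissociation kit before cells positive for the green reporter were sorted. The labels do not say which Ras population was injected into the mice of these libraries. Liver stromal cells, the reporter-negative cells from the same liver tumours (4 libraries), were used to mark genes that could be host RNA: a gene was marked when its mean in them was over 2 times that in the tumour cells.

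All RasHIGH cultures were sequenced in lane 4, and the tumour cell libraries in lanes 1, 1, 2 and 3, so that no lane holds both groups. Only the tumours were dissociated and sorted just before RNA was taken. Lane, dissociation, sorting and growth in the liver therefore cannot be told apart as sources of any difference below, and the Ras level of the injected cells is a further difference that was not known. In sorted bulk samples, fewer cells of a type and less RNA per cell cannot be told apart either. Total counts were between 20818989 and 43489904 per library, and 3 counts stood for 0.069 to 0.144 CPM (counts divided by the library total and multiplied by 1e6). Rn45s, the precursor of ribosomal RNA, took 0.0878% to 0.181% of counts in the cultures and 0.293% to 3.9% in the tumour cells. Levels below are CPM, which are not corrected for gene length and are compared only within a gene. Log2 fold changes and their standard errors (SE) come from edgeR's quasi-likelihood fit, in which the median gene changed by -0.01. A gene was called higher or lower when its log2 fold change was beyond 1 in size and its adjusted p under 0.05.

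Most progenitor markers of BMEL cells were detected in both groups, though at very different levels. Krt19, a keratin of bile duct and progenitor cells, was at 2868, 2369 and 2545 CPM in the cultures and at 2373, 2219, 2180 and 2311 CPM in the tumour cells. Of the 10 tested members of a list of BMEL progenitor markers, 3 were called higher and 0 lower, with the summed level at 9370 to 9689 CPM in cultures and 9794 to 11550 CPM in tumour cells, against 2303 to 2814 CPM in the stroma. Keratins make up most of these sums, Afp stayed under 12 CPM in every library, and Epcam, an epithelial adhesion molecule, did not pass the filter, at no more than 0.0793 CPM in cultures and 0.129 CPM in tumour cells. Sox9, a transcription factor of bile duct and progenitor cells, rose by a log2 fold change of 1.24 (SE 0.32, adjusted p = 0.013), from 346, 159 and 137 CPM to 373, 433, 538 and 537 CPM, a call that was lost without RasHIGH culture 2 (1.06) or culture 3 (0.99). Hnf4a, a master regulator of the hepatocyte lineage, was at 424, 359 and 369 CPM in cultures and 249, 197, 207 and 222 CPM in tumour cells, a log2 fold change of -0.72 (SE 0.11, adjusted p = 0.00129) that did not reach the size needed for a call. Xist was at 719 to 873 CPM in cultures and 639 to 884 CPM in tumour cells.

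Of 12971 genes tested, 1851 were higher in liver tumour cells (14.3%) and 1037 were lower (7.99%). The 2 groups did not overlap in 1803 of the higher and 971 of the lower genes. Among the higher genes, 675 carried the mark of possible host RNA, and 1176 (9.07% of the genes tested) did not. Of the lower genes, 740 were not marked (5.71% of the genes tested). For a lower gene the mark depends in part on the fall itself, because the tumour mean enters the mark. The counts over gene lists that follow stand beside these shares of 14.3% and 7.99%. RasHIGH culture 1 stood apart from the other cultures: its log-scale correlations with them were 0.968 and 0.964, against 0.993 between cultures 2 and 3, and the tumour cell libraries correlated with one another at 0.990 to 0.994. Without it, 2304 genes were higher and 1448 lower.

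**Figure D1:**
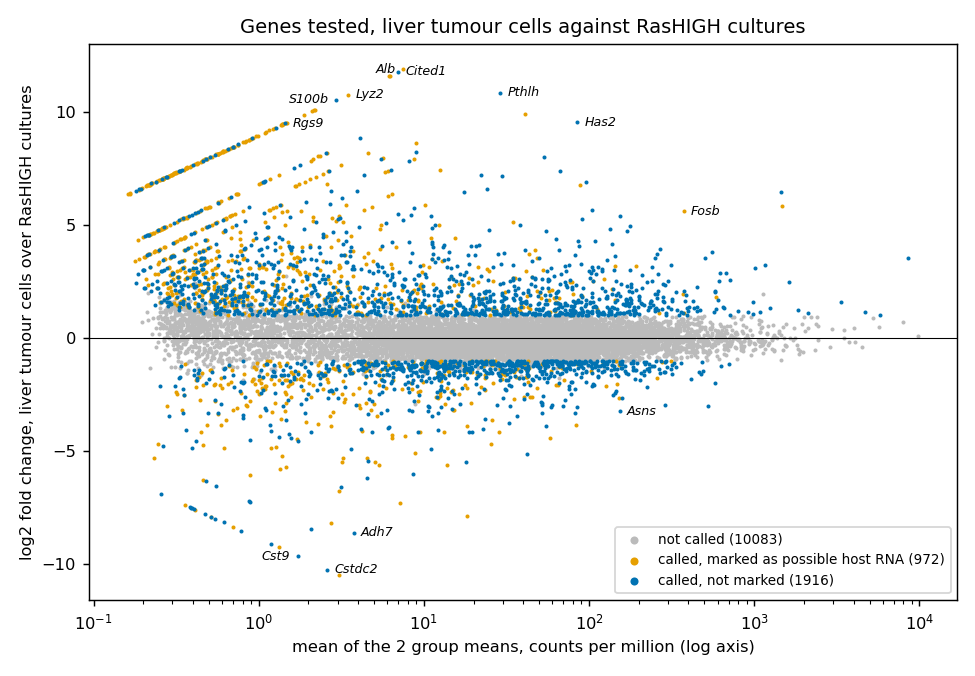
Log2 fold change of liver tumour cells over RasHIGH cultures (vertical axis) against the mean of the group means in CPM (horizontal log axis) for the 12971 genes tested, coloured by call and by the mark of possible host RNA. The 1176 higher and 740 lower genes without the mark lie on both sides of 0, and the straight diagonal edges are genes with no or few counts in 1 group, whose fitted fold depends on a prior count.

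Cells in a solid tumour meet less oxygen and a different supply of nutrients than cells in a dish. Low oxygen stabilises Hif transcription factors, which bind the core letters ACGTG and switch on genes for glucose uptake, glycolysis, mitochondrial turnover and vessel growth. Shortage of amino acids or stress in the endoplasmic reticulum raises translation of Atf4, which binds elements of the form TGATGNAA and switches on amino acid synthesis and transport. Because the hypoxia and Atf4 lists moved as blocks in opposite directions, promoter windows of a few of their members are shown here, from RefSeq (build GRCm38.p6), 5′ to 3′ on the strand of the gene, with the letters of the motif on either strand in capitals. The hypoxia members shown are genes in which ACGTG was found upstream of the start:

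Bnip3 (chr7:138909596-138909625, minus strand): cgcacgcgccgcACGTGccacacgctcccc
Egln1 (chr8:124949305-124949334, minus strand): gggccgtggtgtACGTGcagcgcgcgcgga
P4ha2 (chr11:54100834-54100863, plus strand): tgtgcatcgcatACGTGcagcgcgtggcgg
Pfkfb3 (chr2:11553972-11554001, minus strand): ctccgcgccgtgACGTGccaagctgtgacc

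The Atf4 members shown are genes in which TGATGNAA was found upstream of the start:

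Asns (chr6:7693214-7693243, minus strand): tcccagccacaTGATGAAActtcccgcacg
Chac1 (chr2:119351038-119351067, plus strand): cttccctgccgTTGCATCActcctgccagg
Slc7a11 (chr3:50443661-50443690, minus strand): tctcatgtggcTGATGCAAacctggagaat
Nupr1 (chr7:126625562-126625591, minus strand): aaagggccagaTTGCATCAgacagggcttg

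The capitals begin 107, 68, 78 and 60 bases before the start in the hypoxia genes and 23, 193, 66 and 110 bases before it in the Atf4 genes, in the order listed. In Bnip3 the match lies in CACGTG, which reads the same on both strands and so counts as 2 overlapping matches, and Slc7a11 has a second match 47 bases before its start. Over windows of 250 bases before to 50 bases after the start, ACGTG stood in 12 of the 18 hypoxia members with a promoter in the table (66.7%), against 25.8% of 10268 promoters of tested genes and 19.7% of all 27025 promoters. TGATGNAA stood in 6 of 22 Atf4 members (27.3%), against 2.23% of the promoters of tested genes and 4.06% of all. Both were counted on both strands, as a description of these windows, with no test. Members were picked as genes of these responses, so a share above that of all promoters may be built into the lists. Every hypoxia member with a promoter was called higher, so its share does not set called genes against uncalled ones.

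Genes of the response to low oxygen were higher almost throughout the list. Of its 22 tested members, 21 were called higher and 0 lower, which is 95.5% beside 14.3% of all genes tested, with a median log2 fold change of 2.25. Of the 21, 18 carried no host mark. The 4 with the smallest adjusted p were Egln1, Higd1a, P4ha2 and Fam162a. Egln1, the oxygen sensor that hydroxylates Hif, rose from 94.7, 98.9 and 80.1 CPM in the cultures to 258, 353, 323 and 303 CPM in the 4 mice (log2 fold change 1.86, SE 0.15, adjusted p = 5.2e-05). All 4 tumour libraries lay above all 3 cultures.

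P4ha2, a collagen prolyl hydroxylase, rose from 20.9, 18.8 and 12.1 CPM to 93.9, 152, 137 and 128 CPM (log2 fold change 2.98, SE 0.25, adjusted p = 5.45e-05). Higd1a, a mitochondrial survival factor, rose by a log2 fold change of 2.51 (SE 0.21, adjusted p = 5.26e-05), and Fam162a, a mitochondrial protein, rose by 1.65 (SE 0.14, adjusted p = 6.49e-05). The next genes were chosen for their familiarity after values had been seen. Bnip3, a receptor for the removal of mitochondria, rose from 68.8, 36.4 and 20.9 CPM to 383, 531, 580 and 339 CPM (log2 fold change 3.55, SE 0.42). Car9, a carbonic anhydrase widely used as a hypoxia marker, was low in cultures at 0.277, 0.581 and 0.192 CPM and at 4.71, 5.63, 7.77 and 7.5 CPM in tumour cells. Vegfa, which drives vessel growth, was at 341, 113 and 120 CPM in cultures and 856, 1190, 1091 and 1022 CPM in tumour cells (log2 fold change 2.54, SE 0.40).

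Culture 1 was the highest of the cultures for Bnip3 and Vegfa, yet lay below every tumour library. Angptl4, a lipase inhibitor, was the only tested member not called, at 271, 128 and 137 CPM against 352, 325, 267 and 310 CPM. Lox, which crosslinks collagen, had no counts in the cultures and 0.645 to 0.92 CPM in tumour cells, at least 5.42-fold higher against the floor of 3 counts in the shallowest culture, and was marked, with a stromal mean of 97.6 CPM. The other 3 listed genes, Adm, Slc2a3 and Stc2, did not pass the filter on low counts.

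**Figure D2:**
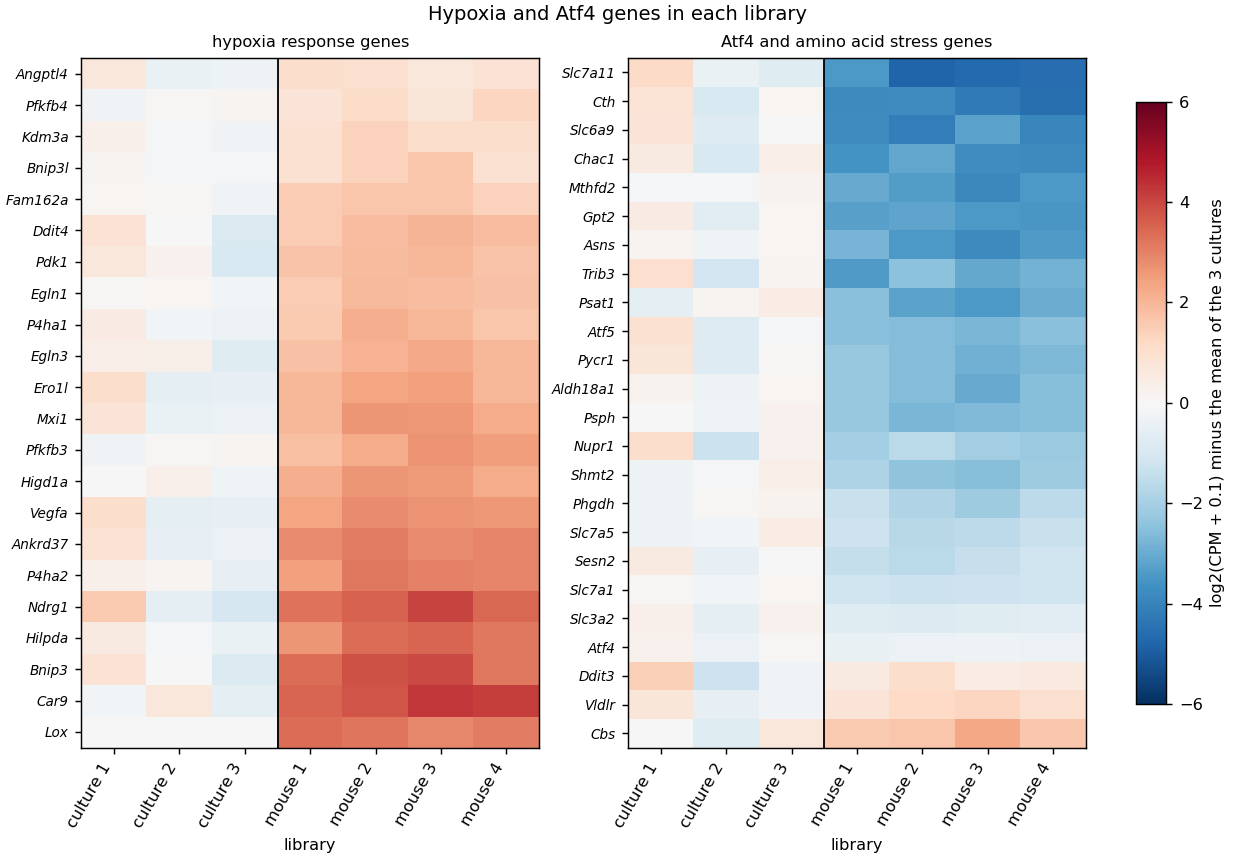
Level of each tested hypoxia gene (left, 22 genes) and Atf4 gene (right, 24 genes) in the 3 RasHIGH cultures and 4 mice, as log2(CPM + 0.1) minus the mean of the cultures (colour). In every row on the left the 4 mice are shifted up, and most rows on the right are shifted down in all 4 mice, with Cbs and Vldlr going the other way.

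Of 19 genes of glycolysis and glucose or lactate transport, 5 were higher and 1 lower (26.3% and 5.26%, beside 14.3% and 7.99% of all genes tested), with a median log2 fold change of 0.87. Slc2a1, the main glucose transporter of dividing cells, rose from 236, 151 and 113 CPM to 536, 747, 955 and 723 CPM (log2 fold change 2.25, SE 0.30, adjusted p = 0.000495). Hk2, which phosphorylates glucose, rose from 201, 137 and 147 CPM to 379, 536, 488 and 484 CPM (log2 fold change 1.64, SE 0.18, adjusted p = 0.0002). Pfkp and the lactate exporter Slc16a3 were also called but marked, with stromal means of 284 and 430 CPM. The list was sensitive to single libraries, and 10 members were higher without RasHIGH culture 2 and 8 without culture 1 or mouse 1. Of 86 genes of oxidative phosphorylation, 1 was higher and 2 were lower (median -0.26), and of 76 ribosomal protein genes 0 were called either way (median -0.18).

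The Atf4 and amino acid genes were lower as a block. Of 24 tested members, 19 were lower and 2 higher, which is 79.2% beside 7.99% of all genes tested, with a median log2 fold change of -2.50. Asns, asparagine synthetase, fell from 312, 230 and 297 CPM in the cultures to 39.5, 25.3, 19.3 and 26.5 CPM in the mice (log2 fold change -3.25, SE 0.22, adjusted p = 2.12e-05). Mthfd2, of mitochondrial folate metabolism, fell from 137, 139 and 175 CPM to 18, 14.4, 10.3 and 13.5 CPM (log2 fold change -3.33, SE 0.18, adjusted p = 8.23e-06). In both genes the groups lie far apart.

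Psph, the last step of serine synthesis, fell by 2.47 on the log2 scale (SE 0.16, adjusted p = 1.88e-05), and Aldh18a1, of proline synthesis, fell by 2.52 (SE 0.18, adjusted p = 2.57e-05). Chac1, which degrades glutathione, was at 58.5, 20.7 and 51.6 CPM in cultures and 3.2, 4.53, 2.95 and 2.7 CPM in tumour cells, and Trib3, a pseudokinase of the stress response, was at 177, 40 and 99.7 CPM in cultures and 8.35, 16.3, 10.4 and 12.5 CPM in tumour cells. Both were chosen after values had been seen. The mRNA of Atf4 itself was not called, at 551, 362 and 480 CPM against 334, 355, 365 and 355 CPM (log2 fold change -0.30, SE 0.15, adjusted p = 0.123). Ddit3, which encodes the stress factor Chop, was not called either (log2 fold change 0.36, SE 0.51), and neither was Slc3a2. The higher members were Cbs, of the transsulfuration pathway (log2 fold change 1.91, SE 0.39), and the lipoprotein receptor Vldlr (1.07, SE 0.28).

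All 19 lower genes were also called lower without each library in turn, and 20 of the 21 higher hypoxia genes were likewise called each time. In RasLOW cultures, the mean of Asns was 208 CPM and that of Mthfd2 126 CPM, also above the tumour cells. In empty-vector BMEL WT cultures the means were 87.1 and 58.4 CPM, still above the tumour cells but nearer to them. Of 18 genes for chaperones of the endoplasmic reticulum, 1 was higher and 0 lower (median 0.06).

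**Figure D3:**
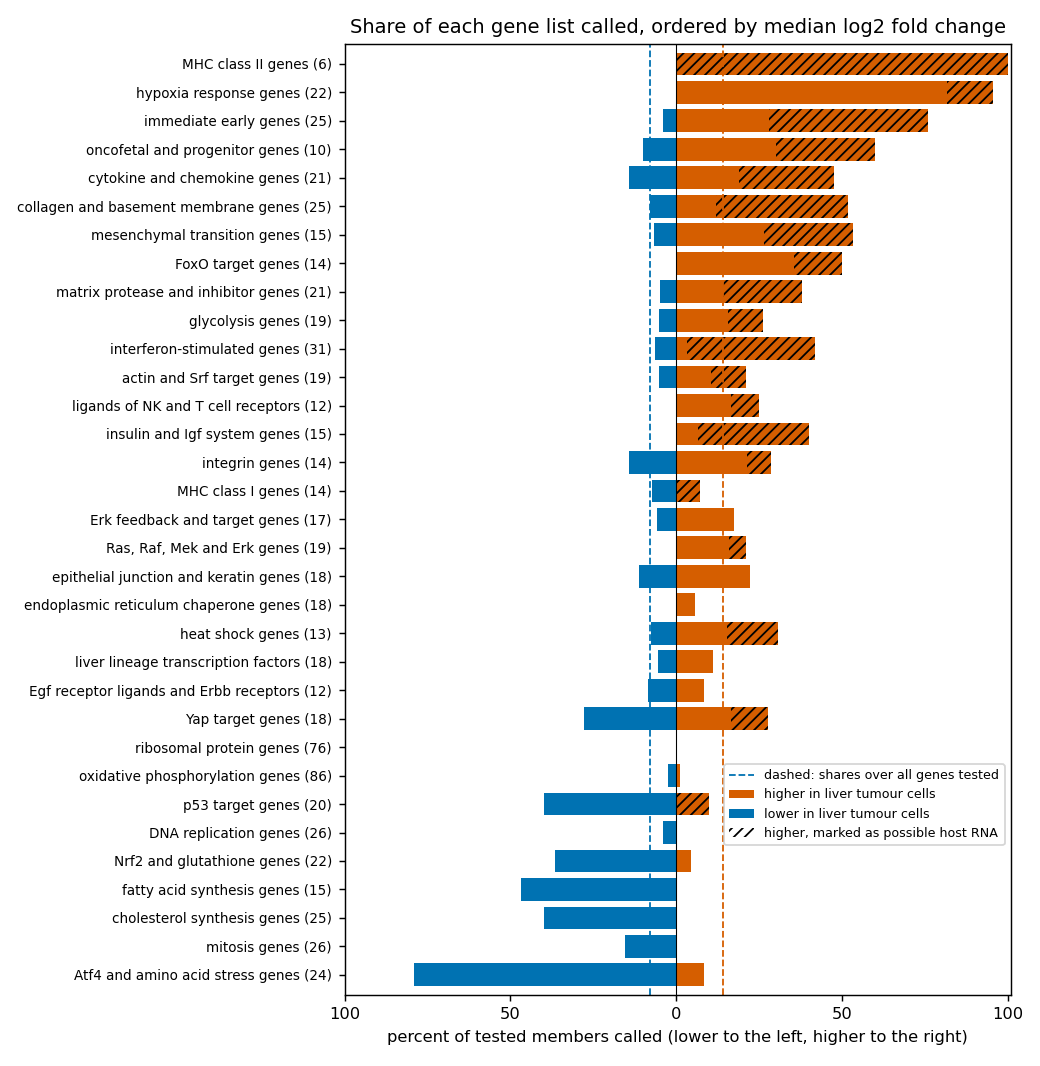
Percent of tested members of each gene list called higher (right, orange) or lower (left, blue) in liver tumour cells, ordered by the median log2 fold change, with the number tested in brackets. Hatching is the share marked as possible host RNA, and the dashed lines are the shares over all genes tested, 14.3% higher and 7.99% lower.

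Lipid synthesis was lower in part. Of 25 cholesterol synthesis genes, 10 were lower and 0 higher (median log2 fold change -0.94). Acat2, which makes acetoacetyl-CoA, fell from 47.5, 55.6 and 41.7 CPM to 20.9, 16.5, 16.8 and 14.6 CPM (log2 fold change -1.39, SE 0.16, adjusted p = 0.000268).

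Of 15 fatty acid synthesis genes, 7 were lower and 0 higher (median -0.92). Fads2, a desaturase, fell from 178, 208 and 131 CPM to 48.6, 36, 34 and 37.5 CPM (log2 fold change -2.05, SE 0.18, adjusted p = 6.87e-05), and Acaca, acetyl-CoA carboxylase, fell by 1.10 (SE 0.13, adjusted p = 0.000261). The cholesterol count moved with single libraries, to 15 without RasHIGH culture 3 and to 6 without culture 1 or mouse 2, and it was 4 with RasLOW in place of RasHIGH cultures. Of 22 Nrf2 and glutathione genes, 8 were lower and 1 higher (median -0.85). They included the cystine transporter Slc7a11, at 209, 70.4 and 55.7 CPM in cultures and 8.62, 3.21, 3.65 and 3.83 CPM in tumour cells (log2 fold change -4.43, SE 0.53, adjusted p = 0.000307), which is also an Atf4 gene.

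The counts for proliferation genes depended on single libraries, culture 1 most of all. Of 26 mitosis genes, 4 were lower and 0 higher (median -0.99), and of 26 DNA replication genes 1 was lower and 0 higher (median -0.69). Plk1, a mitotic kinase, was at 22.8 CPM in culture 1 but 132 and 130 CPM in cultures 2 and 3, and at 33.6, 23.2, 20 and 34 CPM in tumour cells, so that the groups overlap. Ect2, which directs cytokinesis, was likewise at 27.3, 197 and 236 CPM in the cultures and 29.3 to 46.3 CPM in tumour cells. Cdt1, which licenses replication origins, was at 35.9, 77.7 and 85.4 CPM and then 33.9, 24.1, 21.2 and 34.5 CPM (log2 fold change -1.13, SE 0.29, adjusted p = 0.0122), a call lost without culture 2 (-1.0) or culture 3 (-0.92).

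The summed level of the mitosis list was 758 to 4428 CPM over the cultures and 983 to 1874 CPM over the tumour cells. Without culture 1, all 26 mitosis genes and 16 of the DNA replication genes were called lower, and without culture 2 or culture 3 no gene of either list was. Leaving out mouse 1, 2, 3 or 4 left 2, 0, 0 and 1 of the mitosis genes and, each time, 1 of the DNA replication genes called lower. With RasLOW cultures in place of RasHIGH, 18 and 15 were lower. Myc, a driver of growth, fell from 434, 256 and 480 CPM to 151, 129, 131 and 146 CPM (log2 fold change -1.39, SE 0.19, adjusted p = 0.000618). Of 20 p53 target genes, 8 were lower and 2 higher (median -0.67), and the 2 higher ones were marked. Eda2r, of the TNF receptor family, fell from 30.5, 22.7 and 25 CPM to 3.61, 5.15, 4.63 and 4.35 CPM (log2 fold change -2.46, SE 0.18, adjusted p = 3.42e-05), and Ccng1, a cyclin, fell by 1.61 (SE 0.17, adjusted p = 0.000165). Mdm2, the p53 inhibitor and a p53 target, was not called (log2 fold change 0.48, SE 0.16).

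Immediate early genes, which cells switch on within minutes of a stimulus or of handling, were mostly higher. Of 25 tested, 19 were higher and 1, Myc, was lower (median log2 fold change 2.15), and 12 of the 19 carried the host mark. Fosb, an AP-1 subunit, was at 24.5, 4.07 and 20 CPM in cultures and 776, 601, 848 and 699 CPM in tumour cells (log2 fold change 5.60, SE 0.58, adjusted p = 0.000143), with a stromal mean of 1736 CPM. Jun, which is not marked, rose from 72.2, 20.4 and 63.9 CPM to 375, 385, 469 and 477 CPM (log2 fold change 3.14, SE 0.40).

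Egr1 was not called, and the cultures ranged from 32.7 to 1188 CPM, against 1492 to 2082 CPM in tumour cells. The summed level of the list was 1459 to 4174 CPM in cultures, 7510 to 9707 CPM in tumour cells and 15626 to 20292 CPM in the stroma, and both sorted populations had been dissociated, whose part in these values was not tested. After host counts were subtracted from each tumour library in proportion to its leukocyte RNA, 19 members were still higher. That subtraction took 0.235% to 0.390% of the stromal level. The median member stood at 48.5% of the stromal level, where so small a share could change little. Heat shock genes, also known to respond to handling, were higher in 4 of 13, 2 of them marked, and lower in 1 (median 0.01). Hspa1b was at 9.16, 1.83 and 2.59 CPM and then 29.5, 35.7, 44.9 and 41.6 CPM, and is marked, with a stromal mean of 126 CPM.

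Hras was at 52.9, 83.1 and 76.2 CPM in cultures and 55.9, 49.3, 53.2 and 56.3 CPM in tumour cells (log2 fold change -0.30, SE 0.16, adjusted p = 0.151). Mean Hras did not rise with the transgene among cultures. It was highest with the empty vector (87.4 CPM), then 81.7 for RasLOW cells and 70.7 for RasHIGH cells, with overlapping ranges. The vector carried human H-Ras, and how far its reads enter the counts of the mouse gene was not tested. By RT-qPCR for the transgene, the paper reported higher Ras G12V in tumour-grown cells than in their cultured parents. The Hras values here are therefore not taken as transgene levels. Of 19 Ras, Raf, Mek and Erk genes, 4 were higher (21.1%, beside 14.3% of all genes tested) and 0 lower, and 1 of the 4 was marked. Ksr1, a scaffold of Raf, Mek and Erk, rose from 6.98, 4.52 and 5.81 CPM to 49.6, 46.7, 48.4 and 65.5 CPM (log2 fold change 3.28, SE 0.20, adjusted p = 1.47e-05). Mras, a Ras relative, rose by 2.63 (SE 0.28, adjusted p = 0.000155) and Map2k1, which encodes Mek1, by 1.35 (SE 0.16, adjusted p = 0.000272).

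Of 17 Erk feedback and target genes, 3 were higher and 1 lower (median 0.29), 17.6% and 5.88% beside 14.3% and 7.99% of all genes tested. The higher count was 5 without culture 1 and 6 with RasLOW in place of RasHIGH cultures. Dusp5, a phosphatase of nuclear Erk, rose from 177, 103 and 142 CPM to 458, 498, 599 and 586 CPM (log2 fold change 2.03, SE 0.21, adjusted p = 0.000126), while Spry1, an inhibitor of the pathway, fell by 1.06 (SE 0.24, adjusted p = 0.00652), a call lost without culture 1 (-0.74). Among 12 Egf receptor ligands and Erbb receptors, Hbegf was higher (log2 fold change 1.54, SE 0.16) and Erbb3 lower. Erbb3, which is marked, fell from 29.3, 27.4 and 25.4 CPM to 2.51, 2.34, 3.79 and 2.45 CPM (log2 fold change -3.20, SE 0.22, adjusted p = 2.14e-05).

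Of 15 insulin and Igf genes, 6 were higher and 0 lower, and 5 of the 6 were marked. Igfbp3, the unmarked one and a binding protein that limits free Igf, rose from 669, 426 and 456 CPM to 2421, 2839, 2927 and 2676 CPM (log2 fold change 2.49, SE 0.19, adjusted p = 3.97e-05). Of 18 listed FoxO target genes, 14 were tested, and 7 were higher and 0 lower (median 1.01). Of the 7, 2 were marked, Igfbp1 and Pdk4, at means of only 0.334 and 0.443 CPM in tumour cells. The unmarked ones included the cyclin Ccng2, from 130, 80.6 and 92.5 CPM to 247, 328, 360 and 270 CPM (log2 fold change 1.68, SE 0.21). The FoxO count fell to 3 without mouse 2 or mouse 3 and to 4 without culture 2.

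Among 18 Yap target genes 5 were higher, 2 of them marked, and 5 were lower (median -0.09). There were 3 higher without culture 1 or mouse 3 and 3 lower without culture 3. F3, tissue factor, rose by a log2 fold change of 1.32 (SE 0.18), and Wwc1, a Hippo pathway regulator, fell from 167, 225 and 347 CPM to 53.1, 42.5, 37.1 and 49.9 CPM. Ccn2, another Yap target, rose against RasHIGH cultures by 1.02 (SE 0.13), a size of 0.91 without culture 1 and 0.99 without mouse 3, but its mean was 656 CPM in RasLOW cultures, above the 447 to 480 CPM of tumour cells. Of 19 actin and Srf target genes, 4 were higher and 1 lower (median 0.54).

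Attachment and matrix genes moved in both directions. Of 14 integrin genes, 4 were higher, 1 of them marked, and 2 were lower (28.6% and 14.3%, beside 14.3% and 7.99% of all genes tested). Itga5, the fibronectin receptor subunit, rose from 99.1, 54.1 and 50.1 CPM to 402, 409, 486 and 516 CPM (log2 fold change 2.84, SE 0.26, adjusted p = 8.48e-05). Itgb1, its partner, rose from 485, 502 and 581 CPM to 1567, 1558, 1336 and 1362 CPM (log2 fold change 1.57, SE 0.12, adjusted p = 3.78e-05). Itgb7, a subunit best known on lymphocytes, went the other way, from 131, 192 and 147 CPM to 10.5, 9.43, 7.55 and 13.7 CPM (log2 fold change -3.84, SE 0.21, adjusted p = 9.16e-06).

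Of 25 collagen and basement membrane genes, 13 were higher and 2 lower (median 1.14), and 10 of the 13 were marked. The laminin chains Lama3 and Lamb3, parts of the laminin of epithelial basement membrane, were not marked. Lama3 rose from 0.436, 0.268 and 0.24 CPM to 38.3, 44, 57.7 and 37.1 CPM (log2 fold change 7.20, SE 0.32, adjusted p = 3.21e-06), with a stromal mean of 10.4 CPM. Lamb3 rose from 8.96, 18.3 and 19.5 CPM to 239, 242, 290 and 268 CPM (log2 fold change 4.16, SE 0.28).

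Col6a1, a collagen VI chain, was at 0.048 to 0.119 CPM in cultures and at 61.2, 91.1, 86.9 and 90 CPM in tumour cells (log2 fold change 9.91, SE 0.32, adjusted p = 1.48e-06). Col6a1 is marked, with a stromal mean of 357 CPM. Of 21 matrix protease and inhibitor genes, 8 were higher and 1 lower, and 5 of the 8 were marked. Plat, a plasminogen activator, rose from 82.6, 76.3 and 72.5 CPM to 406, 413, 409 and 401 CPM (log2 fold change 2.5, SE 0.11, adjusted p = 2.97e-06). The stromal mean of Plat, 141 CPM, was below every tumour cell library.

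Of 15 mesenchymal transition genes, 8 were higher and 1 lower, and 4 of the 8 were marked. Vim, an intermediate filament of mesenchymal cells that these cells already made in culture, rose from 2427, 3371 and 3382 CPM to 5821, 6519, 6292 and 6749 CPM (log2 fold change 1.15, SE 0.15, adjusted p = 0.000541). Fn1, fibronectin, rose from 109, 20.7 and 28.7 CPM to 2459, 3006, 2512 and 3560 CPM, and is marked with a stromal mean of 8700 CPM. Of 18 epithelial junction and keratin genes, 4 were higher and 2 lower: the epithelial transcription factors Elf3 (log2 fold change 1.49, SE 0.20) and Ehf (2.59, SE 0.61) rose, and the desmosome gene Dsp fell by 1.25 (SE 0.32). Cdh1, E-cadherin, was not called, at 563, 341 and 391 CPM against 476, 359, 457 and 417 CPM.

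Of 18 liver lineage transcription factors, 2 were higher (11.1%, beside 14.3% of all genes tested) and 1 lower (median -0.03). The higher count was 5 without culture 1 and 1 without culture 2 or culture 3. Hes1, a Notch target, was at 99.1, 58.4 and 70.3 CPM and then 240, 168, 467 and 358 CPM. Of 19 listed oncofetal and progenitor genes, 10 passed the filter, and Dlk1, Gpc3 and Igf2 were among those that did not. Of the 10, 6 were higher and 1 lower, and 3 of the 6 were marked. The unmarked higher genes included the fetal liver protein Afp, from 2.14, 2.91 and 2.98 CPM to 11.2, 8.78, 9.03 and 9.05 CPM (log2 fold change 1.93, SE 0.20, adjusted p = 0.000141). Lgr5, a stem cell receptor, was another, from 0.0961 to 0.268 CPM to 2.61 to 3.23 CPM (log2 fold change 4.00, SE 0.36). Of 4 mesothelial genes, 2 were lower: Msln, mesothelin, fell from 786, 576 and 822 CPM to 271, 220, 244 and 256 CPM, and Upk1b, a uroplakin, fell from 31.4, 35.3 and 41.6 CPM to at most 0.282 CPM (log2 fold change -7.89, SE 0.37, adjusted p = 3.59e-06).

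Secreted signals divided by the host mark. Of 21 cytokine and chemokine genes tested, 10 were higher and 3 lower, and 6 of the 10 were marked. The 4 without the mark were Il11, Il34, Lif and Il33. Il11, a cytokine of the Il6 family, rose from 0.674, 0.179 and 0.384 CPM to 24.4, 43.3, 27.4 and 42.5 CPM (log2 fold change 6.44, SE 0.42, adjusted p = 1.82e-05). Il34, a ligand of the macrophage receptor Csf1r, rose from 0.396, 0.581 and 1.34 CPM to 23.2, 22.7, 21.7 and 23 CPM (log2 fold change 4.99, SE 0.35, adjusted p = 2.54e-05), with a stromal mean of 4.24 CPM. The other ligand of that receptor, Csf1, was lower, from 13.5, 24.8 and 48.8 CPM to 7.61, 5.63, 5.5 and 7.28 CPM (log2 fold change -2.06, SE 0.37), and is marked.

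Lif, a relative of Il11, rose by a log2 fold change of 2.5 (SE 0.32) and the alarmin Il33 by 2.10 (SE 0.42). Marked cytokines such as Il1a were at 0 in all cultures and at 1.06 to 2.22 CPM in tumour cells, beside a stromal mean of 560 CPM. The cytokine count rose to 15 without culture 1 and fell to 5 after host counts were subtracted. Of 12 ligands of NK and T cell receptors, 3 were higher (25%, beside 14.3% of all genes tested) and 0 lower. Pvr, a ligand of the receptor Dnam1 among others, was at 84.4, 34.8 and 42.7 CPM and then 112, 128, 138 and 126 CPM. Ulbp1, a ligand of Nkg2d, was at 1.98 to 5.33 CPM and then 5.6 to 11.3 CPM, and the third, Cd86, was marked. Ulbp1 was not called without culture 1, culture 2, mouse 1 or mouse 4 (log2 fold changes 0.88 to 1.22). Without single libraries this count ran from 1 to 4.

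Of 31 interferon-stimulated genes, 13 were higher and 2 lower (median 0.85), and 12 of the 13 were marked. Oasl1, the unmarked one and an antiviral gene, rose from 2.85, 1.88 and 1.34 CPM to 21.2, 15.3, 26.7 and 26.4 CPM (log2 fold change 3.56, SE 0.33, adjusted p = 8.18e-05). Irgm1, an interferon-inducible GTPase, was lower, from 40.7, 42.3 and 43.6 CPM to 9.96, 10.8, 9.51 and 10 CPM (log2 fold change -1.97, SE 0.12, adjusted p = 1.22e-05). The sum of the list was 296 to 532 CPM in cultures and 308 to 319 CPM in tumour cells. Of 14 MHC class I genes, 1 was higher and 1 lower, and the higher one was marked. All 6 tested MHC class II genes were higher and marked, at a median of 0.264% of their level in the stroma. After host counts were subtracted, 1 of these 6 and 10 of the interferon-stimulated genes were still higher.

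The largest rises among unmarked genes were Cited1, Pthlh, S100b, Has2, Rgs9, Podnl1, Glp1r, 1500009C09Rik, Osbp2 and Rtl1. Cited1, a transcriptional coregulator of embryonic progenitors, had no counts in the cultures and 9.7, 8.11, 23.8 and 14.1 CPM in tumour cells, at least 96.7-fold higher against the floor of 3 counts in the shallowest culture. S100b, a calcium-binding protein, had none in the cultures and 4.44, 4.81, 7.91 and 6.47 CPM in tumour cells, at least 41-fold higher. Pthlh, which encodes the parathyroid hormone-related protein, was at 0, 0.0894 and 0 CPM in cultures and 50.7, 68.8, 57.9 and 54.6 CPM in tumour cells, and the ratio of the summed counts was 1974 (95% counting interval 546 to 16302, exact).

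Has2, which makes hyaluronan, was at 0, 0.224 and 0.528 CPM in the cultures and 153, 151, 187 and 184 CPM in the mice (log2 fold change 9.55, SE 0.50, adjusted p = 7.92e-06). Glp1r, the receptor of an incretin hormone, was at 0.0396, 0 and 0 CPM and then 12.2, 8.31, 7.6 and 4.83 CPM, a ratio of 585 (95% counting interval 105 to 23124). The other 5 had no counts in the cultures and were between at least 9.73-fold higher (Rtl1, a gene of retroviral origin) and at least 20-fold higher (Rgs9, a regulator of G protein signalling). All 10 were chosen among genes without overlap between mice and cultures, and where cultures had no counts their order rests on the prior count of the fit. The peritoneal tumour cells of the same mice held them at means of 0.449 CPM (Osbp2) to 92.3 CPM (Has2).

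**Figure D4:**
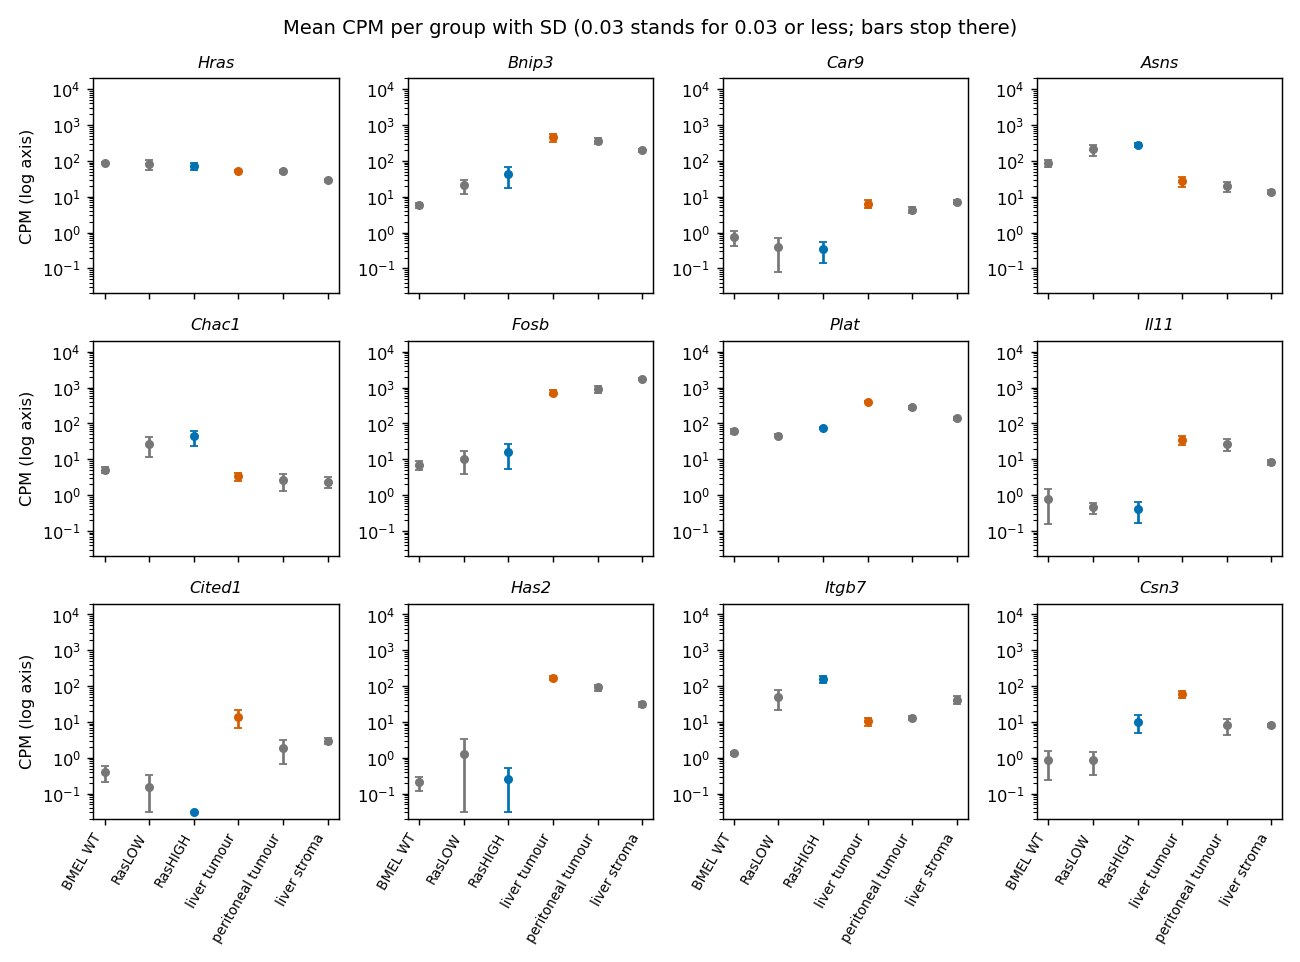
Mean CPM with SD (log axis) of 12 genes in 6 groups: cultured BMEL WT (empty vector), RasLOW and RasHIGH cells (3 each), liver and peritoneal tumour cells and liver stroma (4 each), with very low means drawn at the lowest level of the axis. Hras is close to level over the cultured and tumour groups, Asns, Chac1 and Itgb7 are lower in both kinds of tumour cells than in RasHIGH cultures, and the means of Cited1 and Csn3 are higher in liver than in peritoneal tumour cells.

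The largest falls among unmarked genes were of low level, and in 4 of the 10 no counts were left in any mouse. Cstdc2, of the cystatin family, was at 1.86, 6.08 and 7.69 CPM in cultures and at 0 in all 4 mice, at least 53.9-fold lower, and the related Cst9 was at least 35.6-fold lower. Zscan4b, of a family known from early embryos and stem cells, was at 1.23, 2.15 and 3.75 CPM in cultures and at 0 in the mice, at least 24.6-fold lower. Its near-identical family members could share reads with it. Gm11544 was at least 16.3-fold lower.

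Adh7, an alcohol and retinol dehydrogenase, was at 3.13, 7.02 and 12.3 CPM in cultures and only in mouse 3 of the tumour libraries, at 0.0561 CPM (ratio of cultures to tumour cells 524, 95% counting interval 144 to 4339). Tmigd1, an adhesion protein of epithelia, fell by 6.18 (SE 0.70, adjusted p = 0.000219). Gm10696, 4930461G14Rik and Psca each had 1 count in 1 mouse and were at 1.15 to 5.38 CPM in cultures.

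Among the genes that the study picked on its cultures for an order with Ras level, which is not independent evidence of direction, 6 tested genes rising with Ras gave 2 higher and 2 lower. Dynap, a membrane protein, rose further, from 106, 86.5 and 97.3 CPM to 497, 462, 426 and 488 CPM (log2 fold change 2.37, SE 0.12, adjusted p = 4.58e-06), and Htra3, a serine protease, rose by 1.33 (SE 0.25) but is marked, with a stromal mean of 202 CPM. Itgb7, given above, and Tspan13, a tetraspanin whose call was lost without culture 1, culture 2, mouse 2 or mouse 4 (-0.99 to -1.16), were lower, while Aim2, a sensor of DNA, and AI467606 were not called (log2 fold changes 0.24, SE 0.12, and 0.28, SE 0.16).

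Of 8 tested genes falling with Ras, 3 were higher, all marked, and 2 were lower. Akap12, a scaffold protein, was at 0.674, 0.805 and 1.25 CPM in RasHIGH cultures and 11.2, 7.86, 6.48 and 10 CPM in tumour cells, beside 9.36 CPM on average in RasLOW cultures. Thbs1, thrombospondin, was at 6.53 to 17.6 CPM and then 56 to 71.1 CPM, Pmaip1, which promotes apoptosis, was at 3.13 to 5.96 CPM and then 5.96 to 20.6 CPM (not called without culture 2, at 1.35, or mouse 1, at 0.97), and the pair that fell were Pmp22 (-3.21, SE 0.53) and Crip2 (-1.90, SE 0.32). Sulf2, Cbr1 and Ptp4a3 were not called.

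The study picked 4 further genes on these samples for their level in RasHIGH cultures and in liver tumours. Csn3, kappa-casein, rose from 15.9, 8.09 and 6.05 CPM to 63, 44.5, 72.2 and 57.9 CPM (log2 fold change 2.67, SE 0.34, adjusted p = 0.000421), and Tmem252 rose by 1.27 (SE 0.26, adjusted p = 0.00444). Ceacam1, an inhibitory ligand for NK cells, was at 13, 13.2 and 5 CPM in cultures and 13.9, 10.4, 8.72 and 18.8 CPM in tumour cells, and was not called (log2 fold change 0.40, SE 0.37, adjusted p = 0.402). Selp, P-selectin, changed by 0.69 (SE 0.16, adjusted p = 0.0083), below the size needed for a call.

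RNA of host cells was measurable in the sorted tumour cells. All 10 leukocyte markers were higher than in the cultures and marked, and 2 were still higher after host counts were subtracted. These same 10 markers set the scale of the subtraction, so a loss of calls among them is built in. Their level in tumour cells, as a percent of that in the stroma of the same mouse, had a median of 0.235% in the lowest mouse and 0.390% in the highest, and their sum was 9.41 to 18.9 CPM in cultures, 78.8 to 112 CPM in tumour cells and 6244 to 7037 CPM in the stroma. Tyrobp, an adaptor of myeloid receptors, had no counts in cultures and reached 0.989 to 1.45 CPM in tumour cells, whereas Cd53, a tetraspanin, was at 14.5, 9.3 and 6.53 CPM already in the cultures and at 50.7, 52.7, 76.9 and 56 CPM in tumour cells.

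Of 12 macrophage markers, 10 were higher, all of them marked (sums 294 to 382 CPM in cultures and 444 to 546 CPM in tumour cells). Of 6 listed Kupffer cell markers, of the resident liver macrophage, 4 passed the filter. All 4 were higher, at a median of 1.63% of the stromal level. The 6 summed to at most 0.0447 CPM in the cultures and 2.46 to 8.67 CPM in the mice, and 5 of them had no counts in any culture. A gene without culture counts passes the filter only through the tumour libraries and can then only be higher. Of 10 listed neutrophil genes 5 were tested, with 2 higher and 1 lower. Of 11 NK and T cell genes 2 were tested, with 1 higher and 1 lower. Of 7 B cell genes only 1, Cd79a, was tested, and it was higher. None of the listed erythroid or Y chromosome genes passed the filter, at sums of at most 0.224 and 0.0282 CPM in tumour cells, and the table used here held 0 genes matched as mitochondrially encoded.

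Of 11 endothelial markers, 8 were higher and 1 lower, and 7 of the 8 were marked. Pecam1 and Kdr had no counts in cultures and 1.03 to 2.84 and 0.575 to 1.24 CPM in tumour cells. Cdh5, VE-cadherin, differed from them: it was at 11.2, 9.48 and 6.24 CPM in the cultures, which hold no host cells, and at 107, 102, 209 and 70.3 CPM in tumour cells (log2 fold change 3.88, SE 0.43, adjusted p = 0.00021), and was not marked. Of 10 fibroblast and stellate cell markers, 9 were higher and 8 of these were marked, with Col1a2 at 0 in cultures and 9.04, 13.5, 11.7 and 15.3 CPM in tumour cells beside 1417 CPM in the stroma.

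Of 20 listed hepatocyte markers, 11 were tested, and 7 of the 20 had no counts in any culture. Of the 11, 8 were higher and all 8 were marked, but the median level of all 11 in tumour cells was 22.3% of that in the stroma. Alb, albumin, had no counts in cultures and 3.59, 23.3, 27.2 and 5.38 CPM in mice 1 to 4 (at least 103-fold higher), beside 54.3 CPM in the stroma and 0.234 CPM in peritoneal tumour cells. Fgb and Ahsg, further plasma proteins of hepatocytes, were likewise highest in mice 2 and 3. By fitted fold, which rests on the prior count where cultures had none, Alb, Col1a2, Col3a1, Lyz2 and Csf2rb led the marked genes. Lyz2, Csf2rb and Col3a1 were at 4.41 to 8.92, 3.55 to 5.41 and 10.4 to 14.2 CPM in tumour cells and 0 in cultures.

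Subtracting from each tumour library its leukocyte-scaled share of the same mouse's stromal counts left 489 of the 675 marked higher genes called, and 1165 of the 1176 unmarked ones. The share taken was 0.235% to 0.390% of the stromal level, so unmarked genes could lose little by construction. Being scaled to leukocytes, it left 8 hepatocyte, 9 fibroblast and stellate cell, 8 endothelial and 4 Kupffer cell markers higher, as many as before. Higher macrophage markers went from 10 to 5 and neutrophil markers from 2 to 0. A call kept after subtraction therefore does not place a gene in the tumour cells. The median higher marked gene stood at 3.68% of its stromal level, and 332 of the 675 stood at more than 10 times the highest leukocyte percentage of any mouse. The stroma held Krt19 at a mean of 300 CPM, and whether this came from tumour cells or from host bile duct cells was not tested. How much of each marked rise is host RNA was not tested beyond this.

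**Figure D5:**
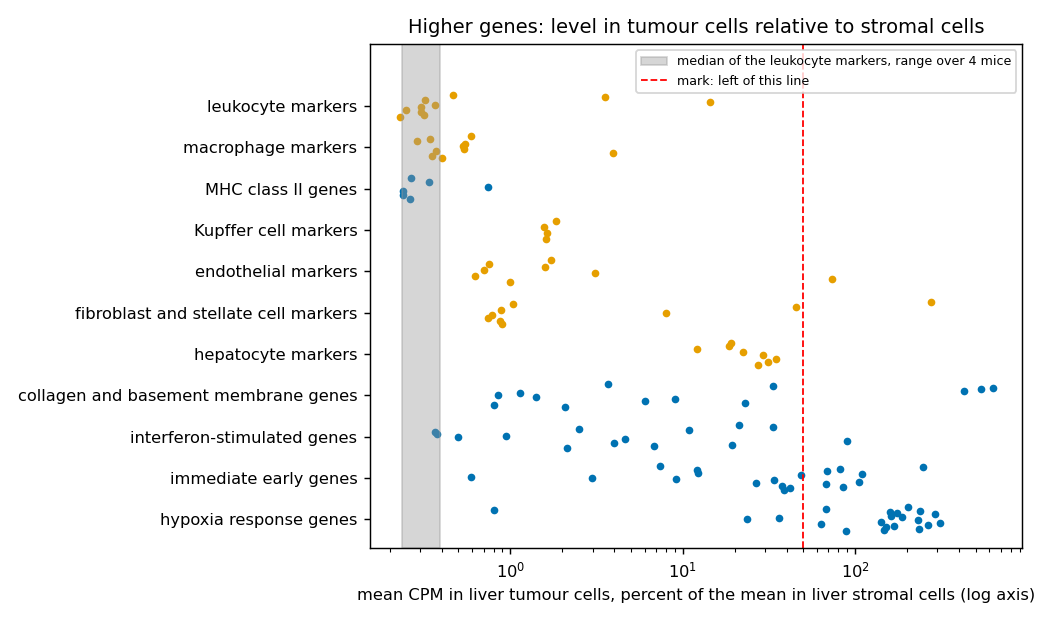
Mean CPM in liver tumour cells as a percent of the mean in liver stromal cells (horizontal log axis) for the called higher members of 11 lists, 1 point a gene. Most leukocyte, macrophage and MHC class II genes lie in or near the grey band of 0.235% to 0.390%, and fibroblast and endothelial genes mostly lie to its right. The hepatocyte genes Fgb, Fgg, Ahsg and Alb lie at 12.1% to 27.4%, and most hypoxia genes lie right of the dashed line of the mark.

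The same 4 mice also carried peritoneal tumours. Between liver and peritoneal tumour cells, 150 of 13074 genes were called (1.15%) in a fit without mouse as a term, and 50 (0.382%) with mouse as a block, an alternative chosen after seeing the data. For the hypoxia genes Egln1 and P4ha2 the peritoneal means were 231 and 75.6 CPM, and for the Atf4 genes Asns and Mthfd2 they were 19.4 and 9.47 CPM, beside the liver tumour values above. The 2 comparisons share the liver tumour libraries.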

How the data were processed

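RNA-seq counts per gene were taken as deposited for 25 libraries, each column matched to its sample by the library code in the labels. The values are raw counts made by the authors, whose methods name TopHat2 and build mm9, while the submitters' processing notes name FastQC, Bowtie 0.12.2 and the builds mm8 and mm10. The counting program, annotation and strand setting are not given in the sources used here, so overlapping and near-identical genes may share counts.

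Genes passing edgeR's filterByExpr (minimum count 10) were fitted for 4 liver tumour cell and 3 RasHIGH libraries with TMM factors and edgeR 4.0.16 quasi-likelihood tests in R 4.3.3, and p-values were adjusted by the Benjamini-Hochberg method across the 12971 genes. CPM are counts divided by the total count and multiplied by 1e6. The liver stromal libraries served for the mark and, as an alternative, for subtraction: in each mouse, stromal counts were scaled by the median tumour-to-stroma ratio of the 10 leukocyte markers. Folds against a group with no counts used a floor of 3 counts per library. Ratios where a group had 1 to 3 counts have exact 95% intervals, and floors and intervals cover counting error only. The fit was tested on simulated data.

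Named genes were the 10 largest changes each way among called, unmarked genes with at least 100 counts and no overlap, the 5 largest marked rises, genes of 3 lists from the study, Hras, and up to 4 members of each of the other lists by adjusted p. Others were chosen after their values were seen: Krt19, Epcam, Hnf4a, Bnip3, Car9, Vegfa, Angptl4, Lox, Chac1, Trib3, Atf4, Ddit3, Slc3a2, Cbs, Vldlr, Myc, Mdm2, Jun, Egr1, Lamb3, Cdh1, Lif, Il33 and Csf1. The members and lists were chosen with earlier results of these data known. Nothing in the labels says that the cultures were started separately, so p-values measure the spread between these samples, which may in part be technical. Alternatives were DESeq2 1.42.0, RLE factors, other filters, a fit of all libraries, a replicate block, each library left out, RasLOW cultures, the host RNA settings and other thresholds. Some named genes are not reported here. Promoters came from RefSeq, build GRCm38.p6.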

Additional observations from a re-analysis of the deposited data

Results flagged for a closer look

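Among the 190 named genes, 14 had a liver tumour library that stood apart from the other 3 by Dixon's criterion, where chance gives about 1 in 20. In 4 of them this is a near-zero level in 1 mouse against 0 in the others: Adh7 at 0.0561 CPM in mouse 3, Gm10696 and 4930461G14Rik at 0.0282 CPM in mouse 2, and Psca at 0.0281 CPM in mouse 3. Mouse 1 was highest for Me1, malic enzyme, at 205 CPM (next 170 CPM), for Slc7a11 at 8.62 CPM (next 3.83 CPM) and for Afp at 11.2 CPM (next 9.05 CPM), and lowest for Col6a1 at 61.2 CPM (next 86.9 CPM). Mouse 3 was highest for Erbb3 at 3.79 CPM and lowest for Tap1, a peptide transporter of antigen presentation, at 0.309 CPM. Mouse 4 was highest for H2-Eb1 at 5.89 CPM, Ksr1 at 65.5 CPM, the T cell receptor component Cd3e at 2.0 CPM and the fibroblast receptor Pdgfra at 3.64 CPM.

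For 15 named genes, edgeR's quasi-likelihood test found liver and peritoneal tumour cells to differ in a fit without mouse as a term. With mouse as a block, added after seeing the data because both tumours come from the same mice, 9 of the 15 were called. The other 6 had adjusted p of 0.0659 (Cited1), 0.0671 (Col1a2), 0.0554 (Col3a1), 0.0683 (Acta2), 0.0854 (Col5a1) and 0.0659 (Col1a1) by the same edgeR test. Without the block, higher in the liver were Cited1 (log2 difference 2.95, adjusted p = 0.0196), Glp1r (4.09, adjusted p = 0.033), Ceacam1 (1.93, adjusted p = 0.0451), Csn3 (2.92, adjusted p = 0.00296) and Tmem252 (1.25, adjusted p = 0.0121). The study had picked the last 3 for this difference on these samples. The hepatocyte genes Alb (6.09), Fgb (5.52), Ahsg (6.17) and Fgg (9.70) and the Kupffer cell gene Clec4f (9.01) were also higher in the liver, all of them marked as possible host RNA. Fgg and Clec4f had no counts in any peritoneal tumour library, so that their fitted differences rest on the prior count, and against a floor of 3 counts they were at least 24.5-fold and 15.5-fold higher. Lower in the liver, without the block, were the fibroblast and matrix genes Col1a1 (-3.07), Col1a2 (-3.24), Col3a1 (-4.24), Col5a1 (-1.83) and Acta2 (-2.75).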

How the results depend on the processing

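The counts of called genes kept within 1.5 times of 1851 higher, 1037 lower, 1176 unmarked higher and 740 unmarked lower, with these exceptions. Higher genes were 1184 with a filter of over 2 CPM and 1196 with marked genes left out, both of which test fewer genes. With RasLOW in place of RasHIGH cultures, 1610 were lower, 1198 of them unmarked, and the cause was not tested. At a log2 fold change above 1.5 and unadjusted p under 0.01, a stricter size, 502 were lower, 732 were unmarked higher and 307 unmarked lower. Leaving out single libraries gave 1584 to 2304 higher, 895 to 1448 lower, 1006 to 1445 unmarked higher and 624 to 1101 unmarked lower. The highest of all 4 were without RasHIGH replicate 1. DESeq2 called 1879 higher and 1061 lower. Replicate numbers did not pair the samples, with same-number deviation correlations of -0.44, -0.20 and -0.30, and a replicate block gave 1469 higher, 778 lower, 941 unmarked higher and 551 unmarked lower. Liver and peritoneal tumours do come from the same mice, and with mouse as a block, chosen after seeing the data, 50 genes differed between them in place of 150, 49 of them in both fits.

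Of 177 named called genes, 123 kept call and direction in each of the 20 settings that tested them. Marked genes are not tested where marked genes are left out, and that setting was not counted against them. Host subtraction reversed Cd74 (-4.16), H2-Aa (-2.14), H2-Ab1 (-2.13), H2-Eb1 (-2.97), Itgam (-3.50), Csf3r (-3.53) and Ptp4a3 (-0.24), and left no counts for Csf2rb, Cd86, Tyrobp and Ngp. RasLOW cultures reversed Igfbp7 (-0.16), Igfbp4 (-1.65), Ccn2 (-0.39), Tspan13 (0.73), Ptp4a3 (-3.82) and Pmaip1 (-0.85), and both cultures together Igfbp4 (-0.78), Ptp4a3 (-2.90) and Pmaip1 (-0.11). Changes of sign near 0 were those of Ptp4a3 (-0.17) and Xist (0.04) under the block, Xist over 2 CPM (0.03) and with marked genes left out (0.00), Rpl5 (-0.04), Cbr1 (0.18) and Xist (0.05) without RasHIGH replicate 1, Ptp4a3 without RasHIGH replicate 3 (-0.02) or mouse 4 (-0.12), and Xist without mouse 3 (0.04) or mouse 4 (0.05). Over the libraries left out, Rpl5 ranged from -0.04 to 0.12, Cbr1 from -1.0 to 0.18 and Ptp4a3 from -0.12 to 0.50. Changes near the floor of 0.069 to 0.144 CPM were not detectable at this depth.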
